A study of Homo sapiens with 2 samples.

Results

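The data describe human chromosome 8 in whole-genome bisulfite sequencing of 2 acute myeloid leukemia (AML) cell lines, cut into 1433 bins of 100 kb among 26926 such bins on the autosomes (25493 on the others). A bin was kept where at least 50 CpG dinucleotides had more than 5 reads in both lines. Chromosome 8 was picked because its CpGs carried more reads than those of other autosomes in both lines, so its read depth is given as a description, with no test. OCI-AML3 carries a heterozygous R882C mutation of the DNA methyltransferase DNMT3A, and AML5, labelled OCI-AML5, is DNMT3A wild type. Both are established AML lines, each represented by 1 library, and the labels give no treatment. The lines are unrelated, so the mutation cannot be told apart from other differences between them.

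Bisulfite turns unmethylated cytosine into uracil, and the share of reads that still show cytosine at a CpG is its methylation level. DNMT3A adds methyl groups to unmethylated CpGs, and R882 is its most frequently mutated residue in AML. In most cells long CpG-poor stretches are highly methylated, CpG-rich promoters are mostly unmethylated, and cancer cells in culture can hold wide partly methylated domains. Chromosome 8 carries MYC on its long arm and clusters of defensin and TRAIL receptor genes on its short arm, and gain of a whole chromosome 8 is a recurrent change in AML. The tables count reads only, and chromosome copies per cell were not measured.

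All 1309135 CpG dinucleotides of hg19 chromosome 8 were listed in each table, and all but 1 of the 1434 bins with a listed CpG entered. The bin left out, at the end of the long arm (chr8:146300001-146364022), had 21 CpGs past the read limit, and the nearest bins inside the limit had 88 and 143. The short (p) arm held 439 bins and the long (q) arm 994, on either side of the centromeric gap, a stretch without a listed CpG (chr8:43838849-46838902). The table for OCI-AML3 held 902802339 methylation calls and that for AML5 894828667. Chromosome 8 took 55657182 and 58671856 of them. With 1 library per line, no comparison of the lines has a replicate check, and the 95% Wilson intervals given below cover counting error only. Calls from 1 read, and from copies made in PCR, are not independent, so the intervals are too narrow.

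At equal CpG density, chromosome 8 was the most deeply read autosome in both lines. Without that matching, chromosome 19 had a slightly higher median bin in OCI-AML3 (39.6 calls per CpG, against 39.3). Chromosome 8 held 4.89% of the autosomal CpGs, 6.33% of the autosomal calls in OCI-AML3 and 6.75% of those in AML5. The median CpG had 37 calls in OCI-AML3, against 28 on the other autosomes, and 44 against 30 in AML5. CpGs without any call were as frequent as elsewhere, at 2.71% against 2.82% in OCI-AML3 and 1.68% against 1.70% in AML5. At the median depth, 3 methylated calls, the fewest taken as detected, stand for a level of 8.11% (OCI-AML3) or 6.82% (AML5).

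Read depth also followed CpG density, and did so more steeply in OCI-AML3. On the other autosomes the median bin had 22.1 calls per CpG in the sparsest of 10 density classes and 43.4 in the densest in OCI-AML3, whereas AML5 went from 28.4 to 36.3. Each bin was therefore divided by the median of the other autosomes' bins in the same class, and the quotient is called the depth ratio here. The median depth ratio of chromosome 8 was 1.41 in OCI-AML3, with the middle 50% of bins between 1.30 and 1.53, and 1.46 in AML5, between 1.39 and 1.52. It lay between 1.39 and 1.45 in every density class in OCI-AML3 and between 1.44 and 1.503 in AML5, so the excess was present in CpG-poor and CpG-rich bins alike. The next autosome was chromosome 1 in both lines, at 1.17 and 1.09.

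**Figure D1:**
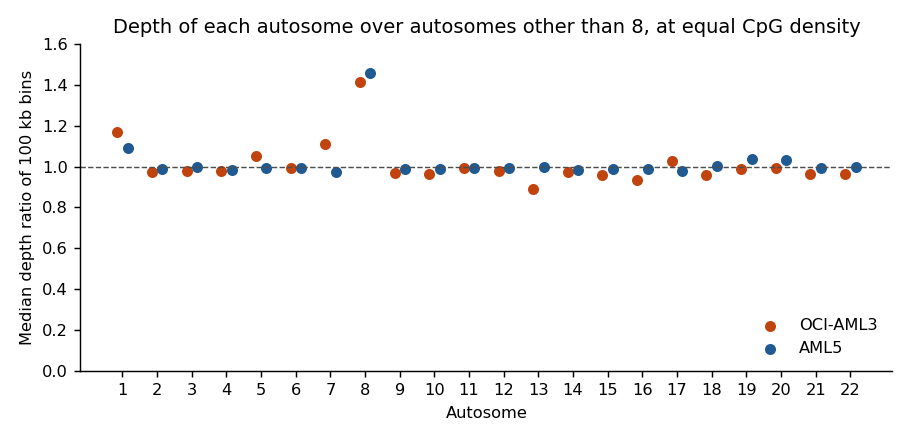
Median depth ratio of the 100 kb bins of each autosome (y axis, no unit) in OCI-AML3 and AML5. The dashed line at 1 is the level of all autosomes except the one plotted, at equal CpG density. For every autosome but 8, that level includes chromosome 8. Chromosome 8 stands at 1.41 and 1.46 and every other autosome at or below 1.17.

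The excess ran along both arms, in all but a few bins. The depth ratio was above 1 in 1415 of 1433 bins in OCI-AML3 and in 1422 in AML5. The q arm was read more deeply than the p arm, at 1.44 against 1.33 in OCI-AML3 and 1.47 against 1.42 in AML5. In the outer 20 Mb of the p arm the medians were 1.26 and 1.39, and in the rest of that arm 1.38 and 1.45, still below the q arm. Among 30 segments of 5 Mb, the medians spanned 1.25 to 1.74 in OCI-AML3 but 1.37 to 1.54 in AML5, so the profile was flatter in AML5. The highest segment in OCI-AML3 was the last, beyond 145 Mb, with 1.74, where AML5 had 1.52. That segment is shorter than the others, with 13 bins, and CpG density was matched by class only. The next highest in OCI-AML3 was 1.54. Across the 1433 bins the ratios of the lines had a Spearman correlation of 0.52, a description over bins that share a library, sequence and alignability.

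**Figure D2:**
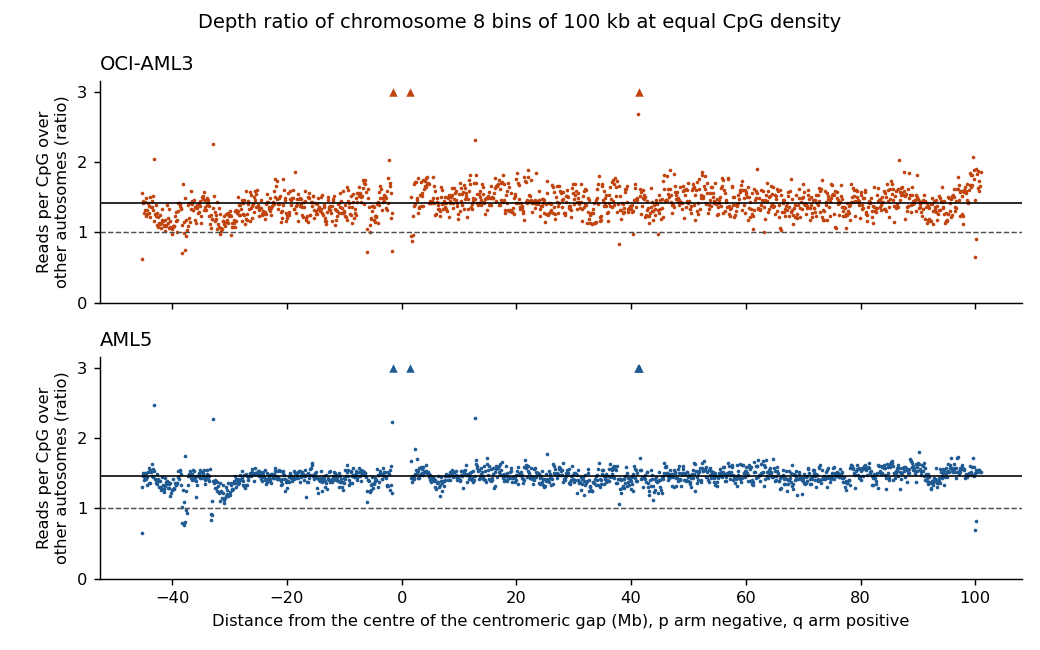
Depth ratio of each chromosome 8 bin of 100 kb (y axis, no unit) against its distance from the centre of the centromeric gap in Mb, in OCI-AML3 (top) and AML5 (bottom). The solid line is the median (1.41 and 1.46), the dashed line is 1, and triangles at the top mark bins above 3, of which those at the gap reach 10.2 and 18.8.

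Few bins departed far from this level, and the highest were largely shared by the lines. The depth ratio exceeded 2 in 10 bins in OCI-AML3 and in 8 in AML5, 7 of them in both. The highest were the bins on the edges of the centromeric gap. The bin chr8:46800001-46900000 had 271 and 583 calls per CpG in OCI-AML3 and AML5 (ratios 10.2 and 18.8), and chr8:43800001-43900000 had 219 and 506 (9.89 and 17.9). Next came 2 bins near 86.5 Mb, of which chr8:86500001-86600000 holds REXO1L1, a gene in a tandem repeat array, with ratios of 2.68 and 3.54. The ratio was below 1 in 18 bins in OCI-AML3 and 11 in AML5, and only 6 of them were below 1 in both. The lowest in both lines was the first bin of the chromosome, at 0.61 and 0.65, followed by chr8:145300001-145400000, which holds MROH1 and SCX, at 0.65 and 0.69. In these bins only 370 of 1191 and 143 of 1311 listed CpGs were past the read limit and entered the ratio.

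Among CpGs past the read limit, the excess was largely missing from the repeated beta-defensin region of the short arm. From 7 to 8 Mb, where the beta-defensin, FAM90A and USP17L families lie in near-identical copies, the median ratio of the 10 bins was 1.07 in OCI-AML3 and 0.99 in AML5. In that megabase 5135 of 15954 listed CpGs (32.2%) had more than 5 reads in both lines, against 90.1% over the chromosome. The ratios rest on these CpGs alone and do not give the depth of the other CpGs listed there. Reads from such copies can be assigned to the wrong copy or dropped, and values of genes in the region are uncertain.

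Chromosome 8 was less methylated in OCI-AML3 than in AML5 on both arms. Over 1180014 CpGs with more than 5 reads in both lines, OCI-AML3 averaged 67.1% and AML5 74.4%, which put OCI-AML3 at -7.24 percentage points from AML5. The p arm differed by -6.12 points (66.6% against 72.7%) and the q arm by -7.88 (67.4% against 75.3%). On the other autosomes the difference was -7.77 (67.7% against 75.5%). Of all chromosome 8 calls, 66.8% were methylated in OCI-AML3 (interval 66.79 to 66.81) and 74.8% in AML5 (interval 74.75 to 74.77). At equal CpG density, chromosome 8 bins differed from those of the other autosomes by a median of +0.38 points, which placed chromosome 8 eighth of 22 autosomes. In 1 Mb bins the same median was +1.01 points.

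The loss was greatest where CpGs were sparse or genes absent. Among the sparsest bins, with 56 to 537 listed CpGs, the median difference was -18.0 points on chromosome 8 and -13.2 elsewhere, with median levels of 43.0% in OCI-AML3 and 61.5% in AML5 on chromosome 8. In bins of middle density, with 822 to 946 CpGs, it was -5.45 points, and among the densest it was -7.91. The 550 bins without a protein-coding gene had a median difference of -9.56 points, and the 883 with one -6.00. By position in genes, the lines differed by -8.49 points between genes (65.4% against 73.9%), -6.62 in introns, -4.60 in exons and -3.84 within 2000 bp of a transcription start site (TSS). The same order held on the other autosomes, where the differences were -8.80, -7.61, -5.85 and -5.04.

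The arms were not uniformly affected. Of the 1433 bins, 535 (37.3%) were lower in OCI-AML3 by at least 10 points, against 37.5% of all autosomal bins, and 96 (6.70%) were higher by as much, against 5.45%. At 20 points 161 bins were lower and 39 higher, and the autosomal shares were 11.7% and 2.09%. OCI-AML3 had the lower mean in 29 of the 30 segments of 5 Mb. The largest losses were at 110 to 115 Mb (55.7% against 78.8%) and at 105 to 110 Mb (66.3% against 86.5%). The exception was 50 to 55 Mb on the q arm, where OCI-AML3 had 73.4% and AML5 68.1%.

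**Figure D3:**
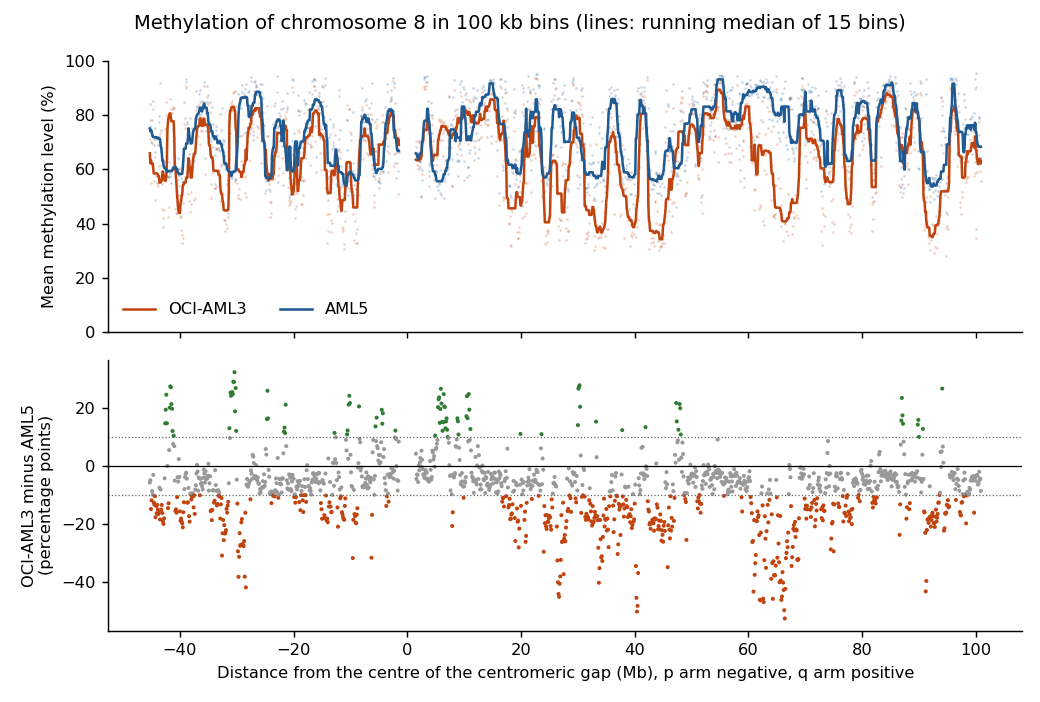
Mean methylation of each 100 kb bin (top, %, points, with a running median of 15 bins as lines) and OCI-AML3 minus AML5 in percentage points (bottom), against distance from the centre of the centromeric gap in Mb. In the bottom panel 535 bins lie at or below -10 (orange) and 96 at or above 10 (green), and the deepest loss lies 66.4 Mb from the gap centre on the q arm.

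Neighbouring bins differed in the same direction, so the losses and gains formed long stretches. Runs of at least 3 bins past 10 points numbered 53 for loss, covering 44.2 Mb or 30.8% of the chromosome 8 bins (31.0% on the other autosomes), and 14 for gain, covering 7.3 Mb or 5.09% (4.21%). The longest loss, at chr8:78700001-80900000, spans PKIA, the cytokine gene IL7, STMN2 and HEY1, and had 45.1% against 68.0% in AML5. The loss at chr8:110300001-112400000 was deeper, at 46.01% against 78.2%. The single bin with the largest loss, chr8:111700001-111800000, lies in it and holds no protein-coding gene, with 39.9% against 92.7% over 377 CpGs (where a pair of levels compares the lines, OCI-AML3 is given first from here on). The bin next to it, chr8:111600001-111700000, had 40.2% against 90.1%. The longest gain, at chr8:50700001-52500000, spans SNTG1 and PXDNL, with 75.3% against 57.6%. Across bins, the levels of the lines had a Spearman correlation of 0.70 on chromosome 8 and 0.72 on the other autosomes.

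Some of the very long genes had large losses or gains over their bodies. The 18 genes of at least 500 kb were chosen after values were seen. The body of RALYL, which encodes an RNA-binding protein, had 40.4% against 68.8%, and its bin chr8:85700001-85800000 had 38.7% against 89.1%. ZFPM2, a cofactor of GATA factors, had 64.9% against 87.5%, and DLC1, a candidate tumour suppressor gene, 42.7% against 64.4%. SGCZ, a sarcoglycan gene, went the other way, with 83.0% against 59.9%. Its bin chr8:14900001-15000000 had the largest gain of the chromosome, 89.1% against 56.6% over 654 CpGs. SNTG1, a syntrophin gene, had 75.5% against 56.3%. CSMD1, a very large gene at the end of the p arm, was mixed. It had 68.7% against 61.5% over its length, less than 10 points apart, and 86.1% against 58.5% in its bin chr8:3600001-3700000. Runs of gain at chr8:2700001-3100000 (79.7% against 61.3%) and chr8:3500001-4100000 (81.8% against 60.4%) overlap it. A run of loss at chr8:4500001-4900000 (45.5% against 59.6%) overlaps it too, and its promoter had 50.1% against 59.8%. Of the 18 genes, 7 were lower and 2 higher by at least 10 points, against 51.6% and 4.84% of 310 such genes on all autosomes, and their median difference was -4.80 points (-10.8 for the 292 on other autosomes).

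Gene bodies and promoters did not always differ in the same direction. The SGCZ promoter was at 10.3% against 45.9%, opposite to its body. The RALYL promoter was at 69.9% against 50.9%, also opposite to its body. DLGAP2, which encodes a postsynaptic scaffold protein, had 56.9% against 71.2% over its body and 79.8% against 60.2% at its promoter.

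Intermediate methylation was more frequent on chromosome 8 than on other autosomes in both lines. Among CpGs with more than 5 reads in both lines, 26.2% had a level between 20% and 80% in OCI-AML3, against 23.0% elsewhere, and 22.5% against 18.9% in AML5. The share was higher on chromosome 8 in each of the 4 positions relative to genes. In promoters it was 17.8% against 15.2% in OCI-AML3 and 19.3% against 16.0% in AML5. In introns it was 23.5% against 20.8% and 18.6% against 15.3%. Between genes the figures were 30.5% against 27.8% and 27.3% against 24.1%, and in exons 17.9% against 16.4% and 12.4% against 11.2%.

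Since the precision of a level depends on the reads behind it, the levels were also compared at equal depth. Among CpGs with 40 to 59 reads, 25.1% of 265993 on chromosome 8 had a level of 20% to 80% in OCI-AML3, and the other 21 autosomes ran from 18.0% to 22.7%. In AML5 the share was 21.4% of 379213 CpGs, and the other autosomes ran from 12.4% to 19.5%. Chromosome 8 was first of 22 in both lines at 20 to 39 reads too, with 27.7% and 24.3%. At 60 to 99 reads it was first in OCI-AML3 (23.1%) and second in AML5 (20.2%, behind chromosome 21). Both arms showed it, with 26.4% on the p arm and 24.3% on the q arm in OCI-AML3, and 23.5% and 20.2% in AML5, at 40 to 59 reads.

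The added CpGs lay on either side of the middle rather than at it. Bands of level were set after the levels were seen and are described without a test. At 40 to 59 reads, 3.38% of chromosome 8 CpGs in OCI-AML3 had a level of 28% to 38%, against 2.06% to 2.85% on the other autosomes. From 62% to 72% the share was 5.02% against 3.35% to 4.16%. From 45% to 55% it was 3.57%, inside the range of the others (3.09% to 4.25%). In AML5 the corresponding shares were 2.78% (1.47% to 2.42%), 4.54% (2.32% to 3.48%) and 3.02% (2.17% to 3.75%). The mean of the outer bands divided by the middle band was 1.17 in OCI-AML3 and 1.21 in AML5, first of 22 autosomes in both, and the others reached at most 1.00 and 1.13. Chromosome 8 was also first at 20 to 39 reads (1.12 and 1.18, the others at most 1.07 and 1.11). At 60 to 99 reads it had 1.20, with at most 1.09 elsewhere, in OCI-AML3, but in AML5 its 1.26 was barely above the 1.25 of chromosome 1. Chromosome 1, the autosome next in depth, came second by this quotient at 40 to 59 reads in both lines. There its middle band was low, at 3.16% in OCI-AML3 and 2.17% in AML5, ranked 21 of 22 in both. Its lower and upper outer bands ranked 13 and 5 in OCI-AML3, and both ranked 14 in AML5. CpGs of equal depth are not otherwise matched between chromosomes. At 40 to 59 reads in OCI-AML3, 14.9% of CpGs on chromosome 8 had levels below 20%, against 18.9% elsewhere, and the part of sequence context in these shares was not tested.

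**Figure D4:**
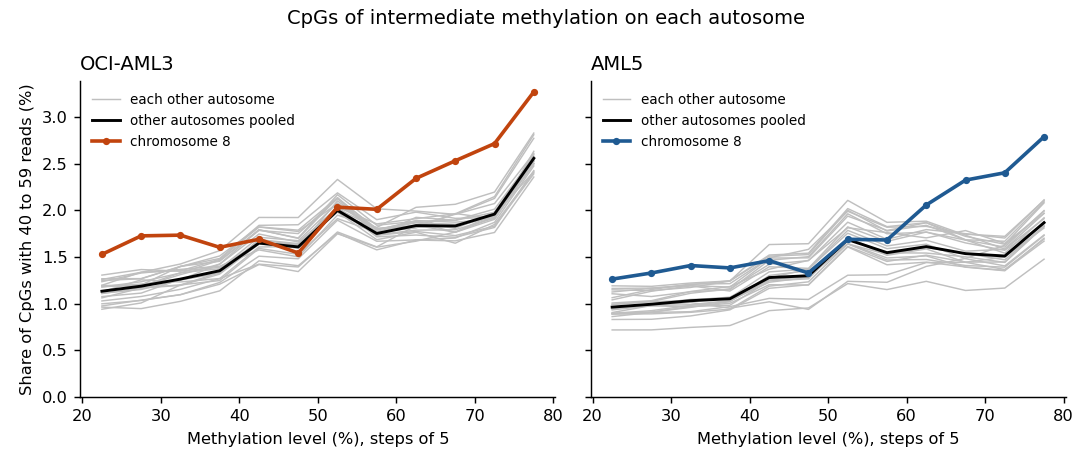
Share of CpGs with 40 to 59 reads (y axis, %) at each methylation level from 20% to 80% in steps of 5 (x axis), in OCI-AML3 (left) and AML5 (right), for chromosome 8 (coloured), each other autosome (grey) and those pooled (black). Chromosome 8 lies above the grey lines at the lower and upper levels, as in the 62% to 72% band with 5.02% and 4.54%, and among them near 50%.

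Single CpGs were compared between the libraries by Fisher's exact test, with Benjamini–Hochberg correction over all 24454751 nuclear CpGs with more than 5 reads in both lines. At an adjusted threshold of 0.05, 201344 of 1180014 chromosome 8 CpGs (17.1%) were lower in OCI-AML3, against 14.7% over all chromosomes, and 62425 (5.29%) were higher, against 3.86%. These tests compare 2 libraries, not the conditions, and pick up smaller differences where reads are many. For a comparison at equal depth, the correction was made separately over the 5560663 CpGs with 20 to 39 reads in both lines. Among these, 14.2% of chromosome 8 CpGs were lower, against 14.1% in all. The surplus of lower calls was thus not seen at this depth, with 13.3% lower on the p arm and 14.7% on the q arm. Only 159967 chromosome 8 CpGs had that depth, and the others were not compared in this way. The surplus of higher calls stayed, at 4.64% against 3.8%. It lay on the p arm, where 6.05% of CpGs were higher at that depth, and 3.84% on the q arm.

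A promoter was taken as the 2000 bp on either side of the TSS farthest upstream. Chromosome 8 has 709 protein-coding genes, of which 683 had at least 10 CpGs with more than 5 reads in both lines, and OCI-AML3 was lower at 557 and higher at 126 of these, with a median difference of -4.25 points (-4.72 on the other autosomes). By a step of 20 points, 51 (7.47%) were lower, against 8.57% of all autosomal promoters, and 18 (2.64%) were higher, against 1.68%. Levels stayed under 20% in both lines at 176 promoters (25.8%, against 22.7% elsewhere). With the start of the canonical transcript in place of the most upstream one, a choice made after the values were seen, 47 of 673 promoters were lower and 16 higher.

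DOK2, which encodes an adaptor protein that restrains tyrosine kinase signalling in myeloid cells, had the largest loss. Its promoter (chr8:21769201-21773201, minus strand) averaged 10.4% against 71.0% over 93 CpGs. Of its calls, 9.74% of 5545 (interval 8.99 to 10.5) and 74.0% of 4198 (interval 72.6 to 75.3) were methylated. FAM135B (17.7% against 67.7%) and TRMT9B, a homolog of tRNA methyltransferases (27.8% against 75.02%), followed. FABP9 (39.99% against 81.9%) and PMP2 (49.4% against 90.5%), neighbouring genes for fatty acid-binding proteins at 82 Mb, were lower together. MYOM2, a muscle sarcomere gene, had 32.9% against 73.7%, and TRHR, the receptor of thyrotropin-releasing hormone, 35.3% against 74.8%. EYA1 and RUNX1T1, also among the 10 largest losses at the most upstream TSS, were not lower by the step at the canonical start, where EYA1 had 24.6% against 28.02% and RUNX1T1 41.7% against 33.4%. RUNX1T1 encodes a corepressor known as the fusion partner of RUNX1 in AML, and its upstream window had 22.96% against 61.99%.

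ARHGEF10, near the end of the p arm, had the largest gain. Its promoter (chr8:1770092-1774092, plus strand) averaged 80.2% against 18.0% over 174 CpGs. Of its calls, 79.3% of 6918 (interval 78.3 to 80.2) and 20.6% of 6140 (interval 19.6 to 21.6) were methylated. MICU3, a regulator of mitochondrial calcium uptake, had 78.6% against 23.1%, and NAPRT, which encodes the enzyme that starts NAD synthesis from nicotinic acid, 91.4%, which was 47.4 points above AML5. XKR6 had 55.4% against 9.46%, the potassium channel subunit gene KCNV1 67.7% against 27.1%, and the protein kinase A inhibitor gene PKIA 57.4% against 17.0%. The PKIA promoter was thus higher in OCI-AML3 inside the longest run of loss. NRG1, a ligand of ERBB receptors, had 82.2% against 48.1% at its most upstream TSS but 14.4% against 44.8% at its canonical one, 909091 bp away.

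**Figure D5:**
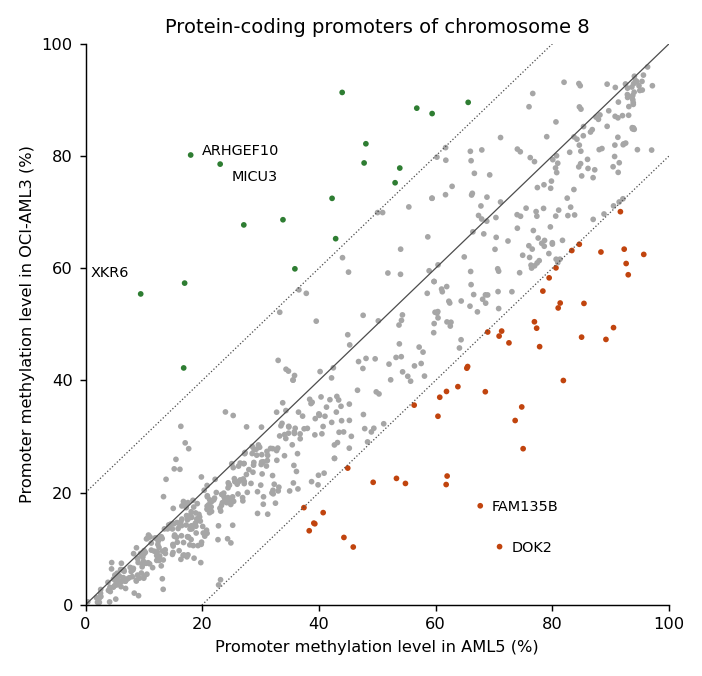
Methylation level of 683 protein-coding promoters of chromosome 8 in AML5 (x axis, %) and OCI-AML3 (y axis, %), with lines at equality and at 20 points on either side. The 51 promoters lower by at least 20 points (orange) include DOK2 and FAM135B, and the 18 higher (green) include ARHGEF10, MICU3 and XKR6.

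Gene groups of chromosome 8 are described by counts at the 20-point step, for which the shares over all promoters were 8.57% lower and 1.68% higher. Of 22 myeloid and immune genes, 3 were lower and 2 higher, with a median difference of -3.54 points. The lower ones were DOK2, the scavenger receptor gene MSR1 (55.9% against 78.4%) and STMN4, a stathmin of neurons rather than an immune gene (48.8% against 71.3%). The higher ones were IDO1 (87.6% against 59.4%) and IDO2 (75.3% against 53.1%), neighbouring genes for enzymes of tryptophan breakdown. MSR1 and IDO1 had smaller differences at the canonical start (72.7% against 86.8% and 63.9% against 56.2%). The Src-family kinase gene LYN, the transcription factor gene CEBPD and the pseudokinase gene TRIB1 were under 10% in both lines.

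Of 5 death receptor genes, 4 lie together at 8p21, and 1 was lower by the step. It was TNFRSF10C, which encodes a decoy receptor for the death ligand TRAIL, with 21.4% against 61.8%. The other decoy gene of the cluster, TNFRSF10D, had 14.2% against 25.2%. The genes for the signalling receptors, TNFRSF10A (32.5% against 42.2%) and TNFRSF10B (27.9% against 33.0%), were also lower, by less than 10 points. Among 15 candidate tumour suppressor genes of the p arm, DLC1 was lower (38.9% against 63.8%) and ARHGEF10 higher, with a median of -7.68 points. At its canonical start DLC1 had 14.8% against 41.3%. TUSC3 had 73.1% against 61.7% at its most upstream start and 73.2% against 46.3% at its canonical one. DUSP4, a MAP kinase phosphatase gene, had 3.54% against 22.8%, just short of the step.

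Of 35 measured developmental regulators, 5 were lower and 2 higher, with a median of -5.83 points. Besides EYA1 and RUNX1T1, the lower ones were the Wnt antagonist SFRP1 (22.5% against 53.3%), the forkhead factor FOXH1 (46.7% against 72.6%) and the Wnt agonist RSPO2 (14.6% against 39.1%). GATA4, a factor of heart and gut development, was higher (72.5% against 42.3%), with 54.96% against 40.8% at the canonical start, and NRG1 was the other. Growth control genes and oncogenes had a median difference of -2.03 points. Of 21, 14 were under 20% in both lines and 1, the meiotic kinase gene MOS, was lower by the step (58.8% against 93.0%). The MYC promoter had 2.73% against 2.60%. PLAG1, a zinc finger oncogene, had 0.519% against 0.390%, and RAD21, a cohesin subunit gene, 3.41% against 5.00%.

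In the LY6, zinc finger, replication and defensin groups no measured gene passed the step. Lower levels of any size were found at 81.6% of the 683 chromosome 8 promoters, which is the share to hold the counts against. The 11 LY6 family genes, which encode small surface proteins at 8q24, had a median of -9.73 points, and the 10 zinc finger neighbourhood genes of 8q24 one of -5.02, all 10 lower. The 19 replication, repair and ribosome genes had a median of -5.00, with PRKDC and MCM4 sharing 1 promoter window (4.22% against 6.84%). Of 24 defensin genes, 17 had at least 10 CpGs and 16 of these were lower, with a median of -10.2 points. The exception was DEFA4, a neutrophil alpha-defensin gene (59.2% against 51.8%). The other 7 had fewer than 10 CpGs read, and all of them but DEFB130B lie between 7 and 8 Mb. Of the genes that the study listed as both hypomethylated and overexpressed in OCI-AML3, 4 lie on chromosome 8. That list was chosen on these samples and is not independent evidence of direction. As a mean over the whole window, DOK2 passed the step, and PDGFRL (21.96% against 38.8%), PCM1 (6.62% against 11.5%) and PLEC (4.75% against 9.26%) did not. The study worked from smoothed profiles and differentially methylated regions in promoters. It listed a larger loss for each of these genes, past its own limit. The measures are unlike, so a whole-window mean short of the step does not contradict that list.

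None of the 6 genes of the imprinted region of 8q24 passed the step, but within the PEG13 window the lines differed in both directions. PEG13 is a noncoding RNA transcribed from within TRAPPC9, and its start is known to be methylated on the maternal copy only. Its whole window, with 172 CpGs at 78.6 and 77.4 calls per CpG, averaged 63.5% against 66.8%. In stretches of 500 bp, a division made after values were seen, the lines parted in opposite directions. Figures for stretches are shares of all calls that were methylated, whereas the whole-window figures are means over CpGs. The first stretch, chr8:141108652-141109151, had 52.4% against 72.3% over 36 CpGs. At chr8:141109152-141109651, with 35 CpGs, 33.5% of 3525 calls were methylated in OCI-AML3 (interval 31.96 to 35.1) and 60.8% of 3271 in AML5 (interval 59.1 to 62.4). In the next 3 stretches, up to position 141111151, OCI-AML3 had 76.1%, 75.3% and 78.4%, and AML5 63.3%, 63.5% and 65.8%. Over these last 4 stretches the AML5 share lay between 60.8% and 65.8%, and in OCI-AML3 it passed from 33.5% to 76.1% between adjacent ones. Beyond them, at chr8:141111152-141111651, both lines were highly methylated, at 95.6% and 96.7%. By whole windows, the neighbouring KCNK9, a potassium channel gene imprinted in brain, differed more than PEG13 (33.8% against 25.3%), and AGO2 less (5.63% against 5.42%).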

How the data were processed

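WGBS of OCI-AML3 (DNMT3A mutant) and AML5 (DNMT3A wild type) was analysed, 1 library each. The authors spiked λ DNA into paired-end libraries and used Bismark on hg19 for alignment and methylation calling (Bowtie 0.12.8 per the submitters' processing notes). In the deposited tables each CpG has a count of methylated and a count of unmethylated calls, with both strands added and no normalization. Removal of duplicate reads is not stated in the sources used here. The methylated column was identified from mitochondrial CpGs, of whose calls 0.168% and 0.101% fell in it. Listed positions lie 1 base after the C of the CpG, and all 1309135 on chromosome 8 then matched GRCh37.

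Levels are methylated calls over all calls per CpG, averaged over CpGs with more than 5 reads in both lines. Depth ratios, bin differences, runs, 5 Mb segments and promoters (TSS ± 2000 bp, at least 10 CpGs, GENCODE lifted to GRCh37) were computed as the text defines them. Fisher's exact test, corrected by Benjamini–Hochberg, compared single CpGs and was tested on simulated data first. Shares have Wilson 95% intervals. The chromosome, gene lists and steps were chosen with earlier results of these data known. Genes named were members of the lists, the 10 largest promoter losses and the 10 largest gains, and genes in the bins of extreme difference or depth. Not all that meet this rule are described, and the genes of long runs and bodies were named after values were seen. Alternatives varied read minimum, averaging, density classes, bin size, step and promoter window. No sequence is printed. The work used matplotlib 3.10.9, statsmodels 0.14.6, numba 0.67.0, pandas 2.3.3, scipy 1.17.1, numpy 2.4.6 and Python 3.11.15.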

Additional observations from a re-analysis of the deposited data

How the results depend on the processing

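None of 49 alternative values changed direction. Many of them could not, being counts of bins, CpGs or promoters already called lower or higher. Others were depth ratios of a chromosome picked for its depth. The lack of change in these is no check. Counts were held to 1.5 times the reported count and other values to their narrow counting interval, and by this 29 moved. With every call counted once, 626 bins and 73 promoters were lower, within that limit. The depth ratio of chromosome 8 in OCI-AML3 and AML5 was 1.48 and 1.51 with all listed CpGs, 1.37 and 1.43 with at least 10 reads, 1.31 and 1.43 without matching on CpG density, and 1.43 and 1.47 in 1 Mb bins. It was 1.41 in OCI-AML3 with 20 density classes and 1.45 in AML5 with at least 200 CpGs per bin. The methylation difference of chromosome 8 was -7.08 points with at least 10 reads, -7.49 with at least 1 read and -7.96 with every call counted once. In the same order it was -6.06, -6.23 and -7.33 on the p arm and -7.66, -8.20 and -8.31 on the q arm. The median difference from other autosomes at equal density was 0.31, 0.42 and 0.43, and 1.01 in 1 Mb bins. At 20 points, 161 bins were lower and 39 higher, and at 10 points 171 promoters were lower and 48 higher. Among CpGs with 20 to 39 reads, 22724 were lower and 7429 higher, as fewer were tested. Promoter counts from canonical starts (47 and 16) were added after seeing the data.

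No paired analysis was possible because each line has 1 library and the labels carry no replicate numbers. No replicate was left out for the same reason, and variation between cultures is unknown. Depth limits single CpGs more than bins, and near-identical copies limit the beta-defensin region.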
